A study of Neurospora crassa with 8 samples.

Results

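The transcripts described here come from 7 genes of the filamentous fungus *Neurospora crassa* that carry the names ccg (clock-controlled gene) or bli (blue light-induced): *ccg-1* (NCU03753), *eas* (NCU08457, also called *ccg-2* and *bli-7*), *ccg-6* (NCU01418), *ccg-8* (NCU09686), *ccg-14* (NCU07787), *bli-3* (NCU07267) and *bli-4* (NCU08699). They were picked by name and identifier from the 9733 genes counted, with earlier results of these data known. Further genes with ccg names were not among them. Strand-specific RNA-seq of polyadenylated RNA was available for *wt* (74-OR23-1VA, FGSC 2489) at 4 time points. Mycelia in liquid culture at 25 °C grew for 1 day in light, spent 24 h in the dark and then received 0, 30, 60 or 120 min of light at 100 μE. A second set of 3 libraries came from mycelia kept for 48 h in constant light, from Δ*wc1* (Δwc1::hyg), Δ*wc2* (Δwc2::hyg) and *wt* (74-OR23-1VA, FGSC 2489). By its label, each mutant carries a hygromycin marker in a deletion at the gene of 1 of the 2 White Collar proteins. How much of each gene was removed, the strain background of the mutants and the number of cultures behind each library were not given in the sources used here. A list of intergenic RNAs from pooled polysome fractions belongs to the same series and holds none of the 7 genes.

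In *Neurospora*, blue light is perceived by the White Collar Complex of WC-1 and WC-2. WC-1 is both the flavin-binding photoreceptor and a transcription factor, and the complex switches on light-responsive genes within minutes of illumination. The same complex drives *frq*, the central gene of the circadian clock, whose product FRQ in turn inhibits the complex. The small photoreceptor VVD, itself induced by light, dampens the response when light persists. The ccg genes were first isolated because their transcripts cycle over the day in constant darkness, and the bli genes because their transcripts accumulate after blue light. Some of them serve the formation of conidia, the air-borne asexual spores whose production is under the control of light and of the clock.

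Each condition had 1 library, so that no difference has a replicate check and no p-value was calculated. The intervals given below are exact 95% intervals of ratios of read counts. Such an interval sets 1 library against another rather than 1 condition against another, and it holds counting error alone. The 4 strand-specific libraries held between 9725970 and 21422091 sense reads on genes, and the 3 constant light libraries between 22215526 and 26210537 exon reads. The 7 genes held 2.21% to 3.31% of the gene reads in the strand-specific libraries and 1.45% to 2.48% in constant light. The 10 genes most counted over these 3 libraries, *ccg-14* among them, held 28.9% of the reads in the library labelled Δ*wc1*, 28.4% in Δ*wc2* and 34.4% in *wt*. A gene was called changed when its reads per 1000000 reads of the library (RPM) differed more than 2-fold between the libraries, with at least 10 reads in the higher one. The median log2 ratio of all genes tested was -0.16 after 30 min, -0.07 after 60 min and 0.04 after 120 min over dark, 0.23 for Δ*wc1* over *wt* and 0.17 for Δ*wc2* over *wt*. Factors that set this median near 0 (median-of-ratios, TMM) moved the ratios of the 7 genes by at most 0.16 on the log2 scale in the strand-specific set and 0.24 in constant light, and changed no call among them.

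In the libraries taken after light, the transcripts of both bli genes were higher and, from 60 min, that of *ccg-14* was lower than in the dark, whereas the remaining 4 genes stayed within 2-fold of the dark library at all 3 times. At 30 min, 2 of the 7 genes were more than 2-fold higher, as were 5.65% of all genes tested, and 0 were more than 2-fold lower, against 7.25% of all genes. At 60 min, 2 were higher (6.27% of all genes) and 1 was lower (5.00% of all genes). At 120 min, 2 were again higher (4.62% of all genes) and 1 was lower (2.23% of all genes). The called genes were *bli-3*, *bli-4* and, from 60 min, *ccg-14*. The median log2 ratio of the 7 genes was 0.20 after 30 min, 0.44 after 60 min and 0.43 after 120 min. There was no dark culture harvested alongside the later times, so the effect of light and that of the additional time since the transfer to darkness cannot be told apart.

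**Figure D1:**
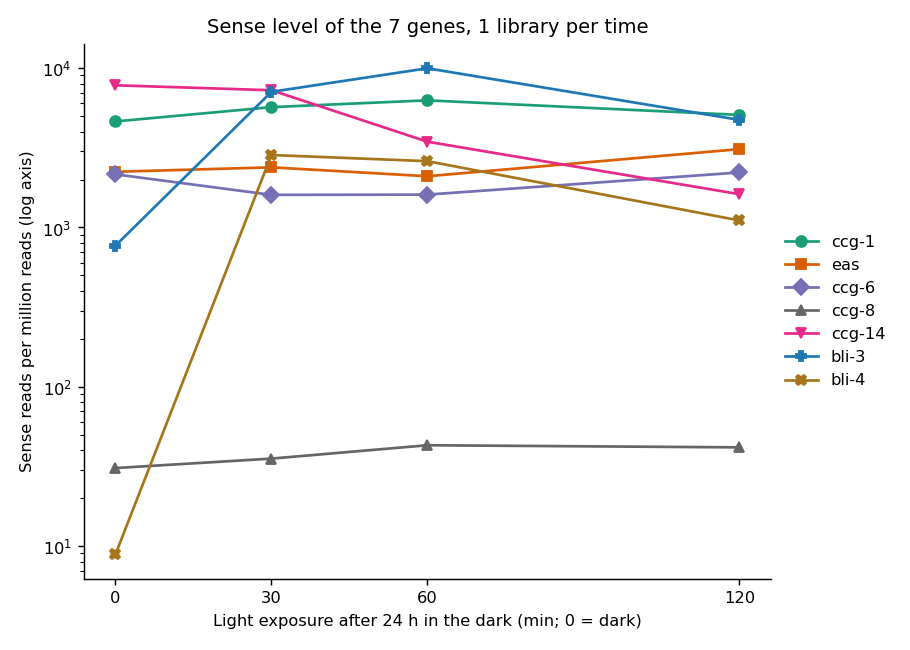
Sense RPM (reads per 1000000, log axis) of the 7 genes against minutes of light after 24 h in the dark, with 1 library per time, 1 point per gene and time and lines that join the points of a gene. Values are not divided by gene length, so the curves show changes of each gene. *bli-4* and *bli-3* lie far above their dark values at 30, 60 and 120 min, *ccg-14* falls below its dark value at 60 and 120 min, and the other 4 curves stay within 2-fold of their dark values.

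*bli-4* encodes a putative short-chain dehydrogenase of mitochondria. Its sense level was 8.87 RPM in the dark, 2850 after 30 min, 2607 after 60 min and 1107 after 120 min, which are 109, 58133, 64549 and 13416 reads. The transcript was thus sparse in the dark library and abundant in all 3 light libraries. The ratio over dark was 321 after 30 min (interval 266 to 392), 294 after 60 min (244 to 358) and 125 after 120 min (103.5 to 152). In the order of all genes tested, from the highest ratio downwards, *bli-4* took rank 5 of 7989 after 30 min, rank 6 of 8052 after 60 min and rank 5 of 7920 after 120 min. Divided by gene length, it had rank 5830 of 9215 genes in the dark and ranks 33, 42 and 116 at 30, 60 and 120 min. The level after 120 min was 2.35-fold lower than after 60 min (2.31 to 2.40).

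*bli-3* was named for its induction by blue light, like *bli-4*, but its dark level per length was higher, at 625 RPM per kb of gene against 4.21 for *bli-4*. It had 768.5 sense RPM in the dark, 7100 after 30 min, 9979 after 60 min and 4734 after 120 min. The ratio over dark was 9.24 after 30 min (9.05 to 9.44), 13.0 after 60 min (12.7 to 13.3) and 6.16 after 120 min (6.03 to 6.30), so that its highest level was after 60 min and that of *bli-4* after 30 min. Between 60 and 120 min the level of *bli-3* became 2.11-fold lower (2.09 to 2.13). Per length, *bli-3* had rank 92 in the dark and ranks 5, 5 and 6 at 30, 60 and 120 min. Its position in the order of all ratios was 55, 40 and 46 from the highest at these times. In the RefSeq annotation *bli-3* overlaps the gene NCU07266, for which the same libraries held 256, 267, 406 and 227 sense reads at 0, 30, 60 and 120 min, and how reads in the shared stretch were assigned is uncertain. The ratios of NCU07266 over dark were 0.629 after 30 min, 0.788 after 60 min and 0.90 after 120 min.

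*ccg-14* encodes a small secreted protein related to SnodProt1 of the wheat pathogen *Phaeosphaeria nodorum*. It had 7805 sense RPM in the dark, 7266 after 30 min, 3455 after 60 min and 1618 after 120 min. The level at 30 min was close to the dark level, and those at 60 and 120 min were each lower than at the time before. The ratio over dark was 0.931 after 30 min (0.923 to 0.939), 0.443 after 60 min (0.439 to 0.447) and 0.207 after 120 min (0.204 to 0.210), the last of which is a 4.82-fold lower level. With median-of-ratios or TMM factors, which gave 0.05 and 0.06, the direction of the log2 ratio at 30 min was opposite to that of -0.10 given by total reads. At 120 min, *ccg-14* took rank 21 of 7920 from the lowest ratio. Per length, it had rank 7 of 9215 in the dark and ranks 14, 45 and 104 at 30, 60 and 120 min.

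*eas* encodes the hydrophobin that forms the water-repellent rodlet layer of conidia. It had 2236 sense RPM in the dark, 2385 after 30 min, 2097 after 60 min and 3103 after 120 min. The highest level was that at 120 min. The ratio over dark was 1.07 after 30 min (1.05 to 1.08), 0.938 after 60 min (0.924 to 0.952) and 1.39 after 120 min (1.37 to 1.41).

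*ccg-1*, also known as the glucose-repressible gene *grg-1*, was among the most abundant transcripts per length in every strand-specific library, at ranks 5, 3, 4 and 2 of 9215 at 0, 30, 60 and 120 min. It had 4629 sense RPM in the dark, 5693 after 30 min, 6279 after 60 min and 5087 after 120 min. The ratio over dark was at most 1.36 (1.34 to 1.37), at 60 min. *ccg-6*, a gene of unknown function, had 2156 RPM in the dark, 1602 after 30 min, 1608 after 60 min and 2214 after 120 min. Its ratio over dark was 0.743 after 30 min (0.731 to 0.755), 0.746 after 60 min (0.734 to 0.758) and 1.03 after 120 min (1.01 to 1.05). *ccg-8*, which encodes a transcription regulator, was the least abundant of the 7 per length in the light libraries, at rank 3931 after 30 min, 3654 after 60 min and 3851 after 120 min. It had 30.9 RPM in the dark, 35.4 after 30 min, 43.0 after 60 min and 41.7 after 120 min. Its ratio over dark was highest at 60 min, with 1.39 (1.24 to 1.57). These 3 genes were below the 2-fold threshold at every time.

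In constant light, *wt* was compared with strains labelled as lacking *wc-1* or *wc-2*. The summed reads on *wc-1* were higher in the library labelled as lacking it than in *wt*, but those on its first exon line were lower. The library labelled Δ*wc1* held 1290 reads on *wc-1* (NCU02356), against 252 in Δ*wc2* and 332 in *wt*. Nearly all of them lay on the second of its 2 exon lines, with 3 reads on the first line in the library labelled Δ*wc1*, 63 in Δ*wc2* and 88 in *wt*. On *wc-2* (NCU00902), there were 922 reads in the library labelled Δ*wc1*, 141 in Δ*wc2* and 605 in *wt*. The second of its 4 exon lines held 3 reads in Δ*wc2*, against 320 in the library labelled Δ*wc1* and 303 in *wt*. Its last line held 31 in Δ*wc2*, against 1 and 2. Which part of each gene was deleted was not given in the sources used here, so the strains are called here by their labels.

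The transcripts of *eas*, *bli-4* and *bli-3* were lower in both mutant libraries than in *wt*, and that of *ccg-1* was lower in the library labelled Δ*wc1* alone. Between Δ*wc1* and *wt*, 0 of the 7 genes were more than 2-fold higher, against 15.6% of all genes tested, and 4 were more than 2-fold lower, against 7.62% of all genes. Between Δ*wc2* and *wt*, 0 were higher (10.4% of all genes) and 3 were lower (8.30% of all genes). The median log2 ratio of the 7 genes was -1.75 for Δ*wc1* over *wt* and -0.40 for Δ*wc2* over *wt*. Both comparisons use the same *wt* library.

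*eas* had 90.7 exon RPM in the library labelled Δ*wc1* and 173 in Δ*wc2*, against 6097 in *wt*. The hydrophobin transcript, which ranked 17 of 9215 genes per length in *wt*, was thus lower by more than an order of magnitude in both mutant libraries. It was 67.2-fold lower in Δ*wc1* than in *wt* (64.4 to 70.3) and 35.3-fold lower in Δ*wc2* than in *wt* (34.2 to 36.4). From the lowest ratio upwards, it took rank 5 of 8595 genes in Δ*wc1* and rank 11 of 8538 in Δ*wc2*. The difference between the mutants was 1.91-fold, with the lower level in Δ*wc1* (1.81 to 2.01). During the first 120 min of light in *wt*, the same gene had stayed within 2-fold of its dark level.

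*bli-4* had 4.63 RPM in the library labelled Δ*wc1* and 6.26 in Δ*wc2*, against 189.7 in *wt*, which are 104, 139 and 4973 reads. It was 40.9-fold lower in Δ*wc1* than in *wt* (33.7 to 50.2) and 30.3-fold lower in Δ*wc2* than in *wt* (25.6 to 36.1). Its ratio between Δ*wc1* and Δ*wc2* was 0.741 (0.569 to 0.962). *bli-3* had 297.5 RPM in Δ*wc1* and 825 in Δ*wc2*, against 2412 in *wt*. It was 8.11-fold lower in Δ*wc1* than in *wt* (7.90 to 8.31) and 2.92-fold lower in Δ*wc2* than in *wt* (2.88 to 2.97). The reduction of *bli-3* was smaller than that of *bli-4* in each mutant library, a difference that was not tested. NCU07266, the gene that overlaps *bli-3*, had ratios over *wt* of 1.64 in Δ*wc1* and 2.29 in Δ*wc2*.

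*ccg-1* differed between the mutants. It had 915 RPM in the library labelled Δ*wc1* and 2960 in Δ*wc2*, against 3087 in *wt*. It was 3.37-fold lower in Δ*wc1* than in *wt* (3.32 to 3.42), with a ratio of 0.959 between Δ*wc2* and *wt* (0.949 to 0.969). Compared directly, Δ*wc1* was 3.23-fold below Δ*wc2* (3.18 to 3.29). *bli-3* was the second such gene, 2.77-fold lower in Δ*wc1* than in Δ*wc2* (2.70 to 2.85). In this comparison 2 of the 7 genes were more than 2-fold lower, against 2.02% of all genes tested, and 0 were more than 2-fold higher, against 6.57% of all genes. *ccg-1* took rank 32 and *bli-3* rank 55 of 8498 from the lowest ratio.

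The remaining 3 genes stayed within 2-fold in every pair of constant light libraries. *ccg-14* had 15789 RPM in the library labelled Δ*wc1* and 9722 in Δ*wc2*, against 12306 in *wt*. Its ratio over *wt* was 1.28 in Δ*wc1* (1.28 to 1.29) and 0.79 in Δ*wc2* (0.786 to 0.794). *ccg-6* had 971 RPM in Δ*wc1* and 822 in Δ*wc2*, against 677 in *wt*, and its ratio over *wt* was 1.43 (1.41 to 1.46) in Δ*wc1* and 1.21 (1.19 to 1.24) in Δ*wc2*. *ccg-8* had 18.8 RPM in Δ*wc1* and 14.9 in Δ*wc2*, against 19.65 in *wt*. For *ccg-8*, the ratio over *wt* of 0.957 in Δ*wc1* had an interval that includes 1 (0.839 to 1.09), and that of 0.758 in Δ*wc2* did not (0.659 to 0.872).

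**Figure D2:**
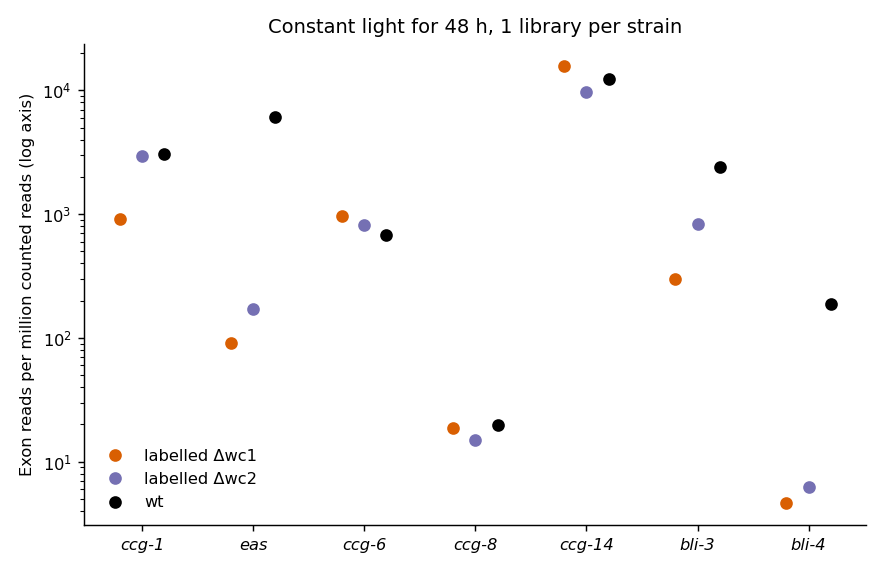
Exon RPM (reads per 1000000 counted reads, log axis) of the 7 genes after 48 h of constant light, with 1 point per library and, for each gene, the libraries labelled Δwc1 and Δwc2 to the left of wt. *eas*, *bli-3* and *bli-4* lie lower in both mutant libraries than in wt, *ccg-1* lies lower in Δwc1 than in Δwc2 and wt, and the 3 points each of *ccg-6*, *ccg-8* and *ccg-14* stay within 2-fold.

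**Figure D3:**
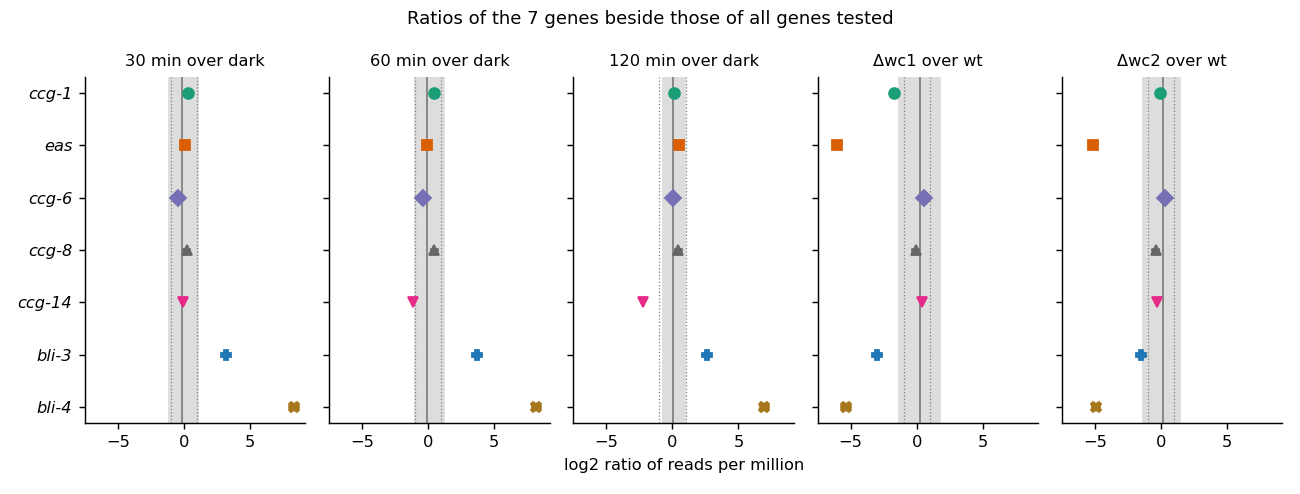
Log2 ratios of RPM of the 7 genes in 5 comparisons, with 1 symbol per gene. The grey band spans the range from the 5th to the 95th percentile of all genes tested, the solid line is their median and the dotted lines mark 2-fold. *bli-3* and *bli-4* lie to the right of the band at all 3 light times and, with *eas*, to its left in both mutants, while *ccg-14* lies to its left at 60 and 120 min and *ccg-1* in Δwc1.

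Genes of light perception, the clock and pigment synthesis, together with *con-6*, *con-10*, *gpd-1* and NCU05429, were placed beside the 7 genes. Of 15 genes on this list, 11 were more than 2-fold higher than in the dark after 30 min (5.65% of all genes). There were 9 after 60 min (6.27% of all genes) and 8 after 120 min (4.62% of all genes). At any time 0 were lower, against 7.25%, 5.00% and 2.23% of all genes at 30, 60 and 120 min. In constant light 7 of the 15 were lower (7.62% of all genes) and 2 higher (15.6%) in the library labelled Δ*wc1* than in *wt*. In Δ*wc2*, 8 were lower (8.30% of all genes) and 1 higher (10.4%) than in *wt*. The list includes *wc-1*, which is among the 2 higher genes in the library labelled Δ*wc1*, and *wc-2*, which is among the 8 lower ones in Δ*wc2*. *al-1*, which encodes the phytoene dehydrogenase of carotenoid synthesis, had a ratio over dark of 388 after 30 min, 249 after 60 min and 90.1 after 120 min. *vvd* had a ratio over dark of 113 after 30 min, 95.3 after 60 min and 73.1 after 120 min. The clock gene *frq* had a ratio over dark of 4.58 after 30 min, 3.60 after 60 min and 3.84 after 120 min. In constant light, the ratio over *wt* of *frq* was 0.273 in Δ*wc1* and 0.213 in Δ*wc2*.

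Markers of conidiation other than *fl* were higher in the light libraries, as were *bli-3* and *bli-4*, and lower in the mutant libraries, as were these genes and *eas*. The list holds *con-6*, *con-8* and *con-10*, named for transcripts that accumulate during conidiation, and *fl*, a regulator of conidiation, of which *con-6* and *con-10* are also on the list of light and clock genes. Their summed level was 585.5 sense RPM in the dark, 9566 after 30 min, 19730 after 60 min and 9355 after 120 min. In constant light the sum was 34.5 RPM in the library labelled Δ*wc1* and 44.3 in Δ*wc2*, against 1710 in *wt*. No marker was at 0 in any library, and 3 of the 4 (all except *fl*) passed 2-fold upwards at each light time and downwards in each mutant. The regulator *fl* had a ratio over dark of 0.985 after 30 min, 0.744 after 60 min and 1.04 after 120 min. Its ratio over *wt* was 0.683 in Δ*wc1* and 0.776 in Δ*wc2*. *con-8* made up most of the sum in constant light in *wt*, and its ratio over *wt* was 0.00838 in Δ*wc1* and 0.0126 in Δ*wc2*. The housekeeping genes *act*, *bml* and *tef-1* had 0 of 3 past 2-fold in any of these comparisons. In such bulk samples, fewer cells of a type and less RNA per cell cannot be told apart, and the part of conidiation in the values of *eas*, *bli-3* and *bli-4* was not tested.

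The constant light files list reads by exon, so that each of the 7 genes has 2 or 3 exon lines, numbered in the order of the files. For *bli-4*, each of the 3 lines was lower in the mutants, with ratios over *wt* of 0.0307, 0.0251 and 0.0198 in Δ*wc1* and 0.034, 0.0358 and 0.0272 in Δ*wc2*. The lines of *eas* (0.0123 and 0.0194 in Δ*wc1*, 0.0254 and 0.0337 in Δ*wc2*) and of *bli-3* (0.137 and 0.11 in Δ*wc1*, 0.37 and 0.315 in Δ*wc2*) were likewise all lower.

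The lines of *ccg-1* did not move together. Its first line had a ratio over *wt* of 0.223 in Δ*wc1*, its second line 0.73 and its last line 0.324, so that the second line did not pass 2-fold. In Δ*wc2* the second line was 2.42-fold above *wt* (2.35 to 2.49), while the first had a ratio of 0.708 and the last of 1.06. Accordingly, the second line held 20.9% of the reads of *ccg-1* in Δ*wc1* and 21.4% in Δ*wc2*, against 8.47% in *wt*. Between Δ*wc1* and Δ*wc2*, the 3 lines had similar ratios of 0.314, 0.302 and 0.307.

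The share of *ccg-1* reads that would have to change lines to match *wt* was 15.3% in Δ*wc1* and 16.0% in Δ*wc2*. Among 1854 genes with several lines and at least 1000 reads in each library, the median was 7.81% for Δ*wc1* and 6.40% for Δ*wc2*. The shift of *ccg-1* was above that of 84.6% of these genes in Δ*wc1* and of 92.3% in Δ*wc2*. Between Δ*wc1* and Δ*wc2*, the median of these genes was 2.27%, with *ccg-1* at 0.733% and *ccg-6* at 5.59%. Both shifts against *wt* rest on the same *wt* library, so a trait of that library and one of the mutants cannot be told apart. *ccg-6* shifted by 14.3% in Δ*wc1*, more than 81.3% of these genes, and by 8.67% in Δ*wc2*, more than 65.5% of them. In Δ*wc1* its first line was at 1.78 times *wt*, with ratios of 0.772 and 0.967 on the other lines. For *eas*, the shift was 10.8% in Δ*wc1* and 6.78% in Δ*wc2*. The shifts of *bli-3* and *ccg-14* lay below the medians of these genes in both mutants.

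**Figure D4:**
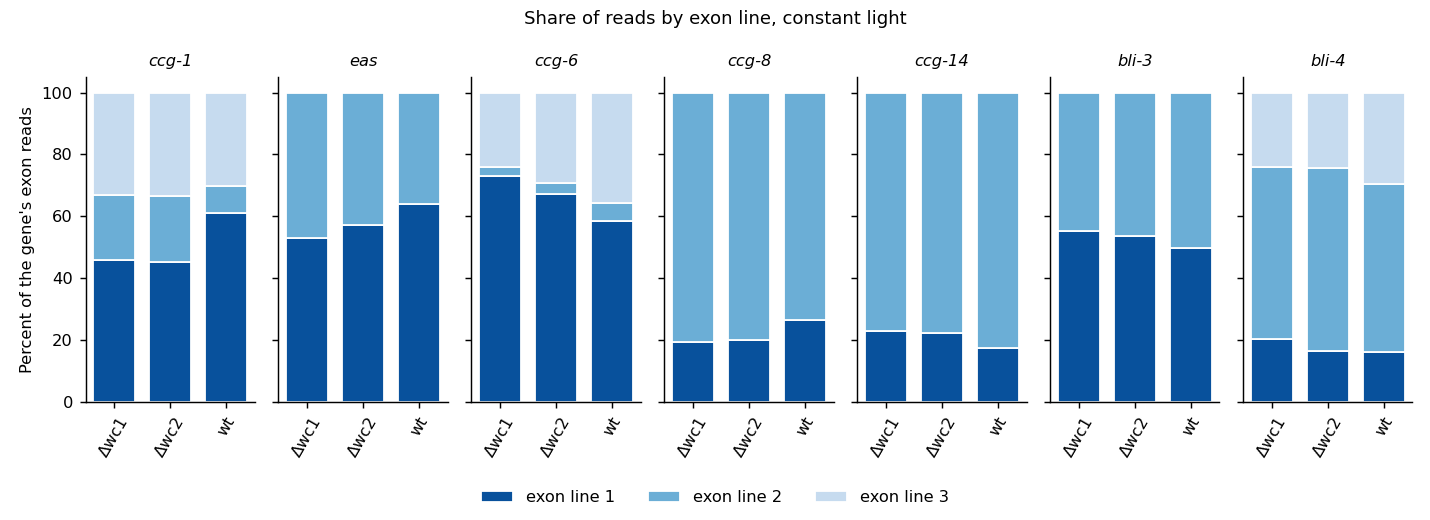
Percent of each gene's exon reads on each exon line in constant light, with 1 bar per library and Δwc1 and Δwc2 to the left of wt. The second line of *ccg-1* holds a larger share in both mutant libraries than in wt, 20.9% and 21.4% against 8.47%, whereas the bars of *bli-3* differ little between libraries.

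All 7 genes had reads on the antisense strand as well, at low levels. The median antisense count of genes with at least 10000 sense reads came to 0.0496% of their sense reads in the dark, 0.12% after 30 min, 0.18% after 60 min and 0.10% after 120 min. Counts near this level cannot be told apart from sense reads placed on the opposite strand. The genes that reached 10000 sense reads differed with depth and numbered 163, 293, 365 and 167 in the same order. *ccg-1* stayed at 0.275 to 0.461 times this ratio in all 4 libraries. *bli-3* had 24 antisense reads in the dark, 99 after 30 min, 253 after 60 min and 57 after 120 min, which is 5.13, 0.57, 0.567 and 0.99 times the ratio. Antisense reads of *bli-3* thus exceeded the background level in the dark library only, where they were few. Whether some of them came from the overlapping gene NCU07266, with 256 sense reads in the dark, was not tested.

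*bli-4* had 37 antisense reads in the dark, 174 after 30 min, 230 after 60 min and 50 after 120 min. Set against its sense reads, these are 33.9% in the dark, 0.299% after 30 min, 0.356% after 60 min and 0.373% after 120 min. The dark value rests on 109 sense reads. Relative to depth, the antisense level itself was 3.01 RPM in the dark, then 8.53, 9.29 and 4.13 RPM. *ccg-6* had 66 antisense reads in the dark, 146 after 30 min, 136 after 60 min and 80 after 120 min, between 1.89 and 5.03 times the strand ratio. For *eas* there were 40, 142, 207 and 104 antisense reads in the same order, between 2.21 and 2.94 times the strand ratio. *ccg-14* had 64, 241, 180 and 38 antisense reads, at 1.17 to 1.93 times the ratio. *ccg-8* had between 2 and 7 antisense reads per library, too few for a call.

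Without *ccg-8*, 6 of the 7 genes had enough antisense reads for a call. The antisense RPM was more than 2-fold higher than in the dark for 5 of these 6 at 30 min, against 21.9% of all genes tested. There were 4 after 60 min (26.6% of all genes) and 2 after 120 min (21.6% of all genes). The strand ratio, taken over different sets of genes in each library, also differed, at 0.0496% in the dark and 0.12% at 30 min. At 30 min *ccg-1*, *eas* and *ccg-14* had antisense ratios over dark of 2.13, 2.14 and 2.27, with sense ratios of 1.23, 1.07 and 0.931. For these genes, more antisense transcript and more misplaced sense reads cannot be told apart. The antisense RPM of *bli-3* at 60 min had a ratio over dark of 5.24 (3.44 to 8.32), but its antisense reads were then 0.567 times the strand ratio, and its sense level was 13.0-fold above dark. At 30 min the intervals of all 5 genes reached below 2, and at 120 min those of *eas* and *bli-3* did. At 60 min the intervals of *ccg-1* (2.11 to 7.35), *bli-3* and *bli-4* (2.17 to 4.50) lay above 2, and that of *eas* (1.83 to 3.70) did not. Of these 3 genes, *ccg-1* and *bli-3* were below the strand ratio at 60 min, at 0.353 and 0.567 times its value, so that their counts cannot be told apart from misplaced sense reads. *bli-4* was at 1.97 times the strand ratio at that time, and the ratio itself was 0.0496% in the dark and 0.18% at 60 min.

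**Figure D5:**
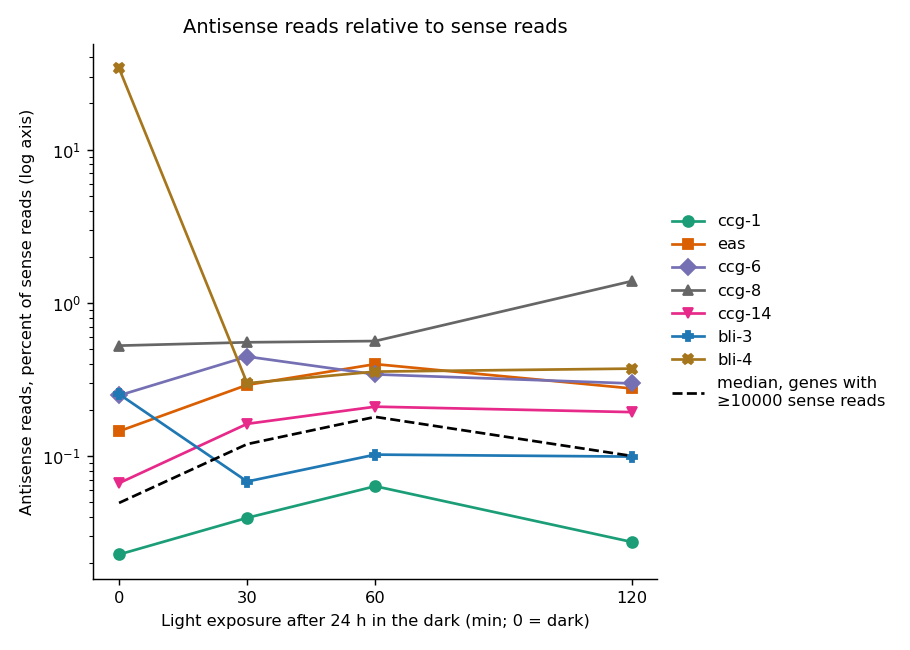
Antisense reads as percent of sense reads (log axis) for the 7 genes against minutes of light, with 1 library per time. The dashed line is the median of genes with at least 10000 sense reads in the library concerned, which are not the same genes at each time. *bli-4* stands at 33.9% in the dark and between 0.299% and 0.373% in light, *ccg-1* lies below the dashed line at all times, and *ccg-8* rests on at most 7 antisense reads.

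The 7 genes did not form 1 pattern. The distance between genes was taken as the root mean square difference of their log2 ratios in 5 comparisons, of which 3 share the dark library and 2 the constant light *wt* library. The 5822 genes with at least 100 reads in every library were compared. Between members, it ran between 0.657, for *ccg-6* and *ccg-8*, and 7.72, for *ccg-14* and *bli-4*. *bli-3* and *bli-4* were 4.05 apart. No member had another member among its 3 closest genes.

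Among the genes compared, those closest to *bli-4* were *al-1* at a distance of 1.16 and *vvd* at 1.24, followed by *phr*, which encodes a DNA photolyase, at 3.29. The minimum of 100 reads left out *cry*, *con-6* and *con-10* of the light and clock list, whose distances were not calculated. There were 56 reads of *cry* in the dark and 85 in Δ*wc2*, 67 of *con-10* in Δ*wc1*, and 79 of *con-6* in the dark. The ratios of *cry* over dark were 362, 328 and 207 at 30, 60 and 120 min, against 321, 294 and 125 for *bli-4*. Over *wt*, the ratios of *cry* were 0.0449 in Δ*wc1* and 0.03325 in Δ*wc2*, against 0.0244 and 0.033 for *bli-4*. For *con-10* the ratios over dark were 169, 400 and 110 at these times, and those over *wt* were 0.0545 in Δ*wc1* and 0.0839 in Δ*wc2*. *con-6* had 506, 1163 and 550 over dark, and 0.424 in Δ*wc1* and 0.33 in Δ*wc2* over *wt*. The genes closest to *bli-3* were *mig-9* at 0.317, NCU11090 at 0.491 and NCU04823 at 0.647. *eas* was followed by NCU08052 at 0.815, *app* at 1.19 and NCU04474 at 1.28. *ccg-14* was closest to NCU09108 at 0.373, NCU04526 at 0.407 and *nit-3*, the nitrate reductase gene, at 0.433. For *ccg-1* the closest were NCU06131 at 0.214, *gcy-3* at 0.287 and NCU09611 at 0.288. *ccg-6* and *ccg-8* changed little in any comparison and had many close genes, with NCU10518 at 0.0396, NCU06216 at 0.0597 and NCU07688 at 0.0644 from *ccg-6*, and NCU01967 at 0.119, NCU00561 at 0.132 and NCU07716 at 0.134 from *ccg-8*. The median distance of all these genes was 7.04 from *bli-4* and 3.75 from *eas*, but 0.458 from *ccg-6*.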

How the data were processed

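The strand-specific libraries were prepared with the NEBNext Ultra Directional kit. Bowtie 2.1.0 was used by the authors for mapping to NC10, with mismatches allowed, and HTSeq for counting. They deposited raw counts per gene, with sense and antisense reads in separate files. Libraries from constant light were made with standard Illumina protocols and deposited by the authors as raw counts per exon, which were summed per gene here. Their mapping, counting and strand were not given in the sources used here. Strand-specific counts were divided by the total reads that the study gives for each library, and constant light counts by their sum. With 1 library per condition no model was fitted. Ratios have exact Clopper-Pearson 95% intervals. A count of 3 reads, the lowest signal taken as detectable, is 0.115 to 0.248 reads per 1000000.

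Names and gene lengths (introns included) came from RefSeq NC12, in which 9215 of 9733 counted identifiers have a length. Gene order and overlaps were also read from it, but none of its coordinates are printed, since the counts were made on NC10. The text names the 7 members, the 3 genes closest to each, and genes of the light and clock and the marker lists. Members and lists were chosen with earlier results of these data known. Further ccg genes, neighbours and NCU07266 were named after their values were seen. NCU05429 was put on the light and clock list as *ccg-9*, a name that RefSeq gives to NCU09559. The procedure was tested on simulated counts that hold counting error alone, so this test does not bear on variation between cultures. Alternatives concerned library size, call rule, minimum count, pseudocount and exon line. TMM factors came from edgeR 4.0.16 in R 4.3.3, and the other steps used scipy 1.17.1, pandas 2.3.3 and numpy 2.4.6 under Python 3.11.15. Promoter and protein sequences were not used here.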

Additional observations from a re-analysis of the deposited data

Results flagged for a closer look

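Some genes lay on different sides of 1 in libraries that share a reference. The ratio of *eas* over dark was 1.07 at 30 min, 0.938 at 60 min and 1.39 at 120 min. *ccg-6* had 0.743 at 30 min, 0.746 at 60 min and 1.03 at 120 min. *ccg-14* had a ratio over *wt* of 1.28 in the constant light library labelled Δ*wc1* and 0.79 in that labelled Δ*wc2*. All of these values are within 2-fold, and with 1 library per condition the differences between them were not tested.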

How the results depend on the processing

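Over 48 alternatives for the numbers of called genes, 45 left the number within 1.5 times the value given and 3 did not, all of them on the antisense strand. When the whole interval had to lie beyond 2-fold, 0 genes were called at 30 min and 0 at 120 min, in place of 5 and 2. With a pseudocount of 1 read per 1000000, 2 were called at 30 min. In Δ*wc1* over Δ*wc2*, *eas* joined *ccg-1* and *bli-3* on the exon line with the most reads, which makes 3 genes. The alternatives for this comparison and for antisense reads at 60 and 120 min were added after seeing the data. No called ratio of the 7 genes turned its direction in 273 recomputations. Among uncalled ratios, *ccg-14* at 30 min over dark turned its sign with the factors named in the report, *ccg-8* in Δ*wc1* over *wt* on its most counted exon line (log2 0.08, against -0.06) and antisense *ccg-6* at 60 min with sense gene reads as depth (-0.08, against 0.03). The largest shift on the sense strand or in constant light was 0.44 on the log2 scale, for *ccg-1* between Δ*wc2* and *wt* on its exon line with the most reads. Whether coding length in place of gene length changes the ranks was not run, since RefSeq gave 1 length per gene. No paired analysis was possible because each condition had 1 library, and none could be left out. The antisense values rest on at most 253 reads per gene.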

Other observations

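RefSeq gives ccg names to 7 further genes, which were picked by name after the data had been seen, *gpd-1* of the light and clock list among them. In the strand-specific libraries *ccg-4* had at most 1 sense read, too few for a call. None of the others exceeded its dark level by over 2-fold, against 5.65%, 6.27% and 4.62% of all genes at 30, 60 and 120 min. *ccg-16* (ratio 0.337 at 60 min and 0.463 at 120 min) and *ccg-13* (0.411 at 120 min) were lower, against 5.00% of all genes at 60 min and 2.23% at 120 min. In constant light *ccg-13* had a ratio over *wt* of 0.292 in the library labelled Δ*wc1* and 0.331 in Δ*wc2*, and NCU09559, which RefSeq names *ccg-9*, was higher in Δ*wc1* with 2.63. Of all genes tested, 7.62% were lower and 15.6% higher in Δ*wc1*, and 8.30% lower and 10.4% higher in Δ*wc2*. *ccg-4*, a pheromone precursor gene, had 2 reads in Δ*wc1* and 2 in Δ*wc2*, against 5 in *wt*.

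Of 10 neighbours of the 7 genes with a ratio over dark, 2 were more than 2-fold higher at any light time and 0 more than 2-fold lower. Of all genes tested, 5.65%, 6.27% and 4.62% were higher at 30, 60 and 120 min. NCU01419, next to *ccg-6*, had a ratio of 3.08 at 60 min, at which *ccg-6* itself had 0.746. NCU08697, next to *bli-4*, had a ratio of 2.08 at 30 min, from 83 reads at 30 min and 24 in the dark. In constant light, NCU09685, next to *ccg-8*, had a ratio over *wt* of 0.0653 in Δ*wc1* and 0.044 in Δ*wc2*. NCU07268, next to *bli-3*, had 0.476 in Δ*wc1*, and NCU07266 had 2.29 in Δ*wc2*.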
